A study of Caenorhabditis elegans with 2 samples.

Results

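Candidate binding regions of CEH-79, a homeobox protein of the nematode Caenorhabditis elegans, were examined at the promoters of protein-coding genes on the autosomes. A candidate was taken where its summit, the position of highest signal, lay from 1000 bp upstream to 200 bp downstream of an annotated protein-coding transcript start. Candidates on the X chromosome and candidates at most 500 bp from genes for tRNAs, snoRNAs or snRNAs were left out. The rule used position alone and found 7423 of the 30000 candidates called on the pooled replicates (24.7%). The data came from ChIP-seq of whole young adults of strain OP553, of mixed sex, collected 66 hours after first larval stage animals had been synchronized by starvation. The strain carries the unc-119(tm4063) III mutation and the transgene wgIs553, which encodes CEH-79 fused at its C terminus to GFP and FLAG, and chromatin was pulled down through GFP. All samples belonged to 1 group of 2 biological replicates. There was no contrast between conditions, and signal from different cell types of the animal cannot be told apart.

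A promoter is the stretch beside a transcript start where transcription factors and RNA polymerase II assemble. Homeobox proteins bind DNA through a homeodomain, which in many family members reads short AT-rich words. In the worm many neighbouring genes are arranged head to head and share the DNA between their starts, while others form operons, runs of genes on one strand that are transcribed together from a promoter at the front and cut into single mRNAs by trans-splicing. For trans-spliced genes the annotated start is often the splice site of the mature mRNA, and transcription begins farther upstream.

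Sequences around the summits are shown for strong promoter candidates that shared a short word. Each is the plus strand of the ce11 assembly (WBcel235, taken from RefSeq), 101 bp centred on the summit and clear of protein-coding exons, and capitals mark the word on either strand. All 3 words displayed were picked by reading the strongest summits, so their presence there is no evidence for them. The word ACACTC, with its reverse complement, recurred beside genes for ribosomal proteins of the large subunit and beside tasp-1, which encodes a relative of the protease taspase. The windows are chrIII:3867515-3867615 for rpl-3, chrIII:10759196-10759296 for tasp-1 and K01G5.10, chrIV:654883-654983 for rpl-15 and K11H12.8, and chrIV:4750031-4750131 for rpl-20 and Y17G9B.5.
rpl-3: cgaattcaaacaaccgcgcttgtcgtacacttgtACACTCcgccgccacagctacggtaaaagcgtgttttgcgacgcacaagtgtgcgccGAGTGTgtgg
tasp-1 and K01G5.10: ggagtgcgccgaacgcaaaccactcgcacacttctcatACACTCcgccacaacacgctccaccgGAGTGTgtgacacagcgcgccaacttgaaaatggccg
rpl-15 and K11H12.8: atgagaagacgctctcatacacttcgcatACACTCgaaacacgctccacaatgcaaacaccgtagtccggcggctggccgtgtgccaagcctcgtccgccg
rpl-20 and Y17G9B.5: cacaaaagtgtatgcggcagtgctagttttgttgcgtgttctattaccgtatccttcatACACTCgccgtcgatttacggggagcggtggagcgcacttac

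The word AGACGC recurred between set-16, a histone H3 lysine methyltransferase gene, and drr-2, a gene for a translation factor, and beside sec-61.G, which encodes the gamma subunit of the Sec61 protein channel. It was also present beside pcrg-1 and in the rpl-15 window printed above. The windows are chrIII:13643709-13643809, chrV:10897303-10897403 and chrII:7200281-7200381.
set-16 and drr-2: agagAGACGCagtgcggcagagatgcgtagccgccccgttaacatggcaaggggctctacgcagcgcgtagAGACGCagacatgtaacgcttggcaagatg
sec-61.G and F32D8.13: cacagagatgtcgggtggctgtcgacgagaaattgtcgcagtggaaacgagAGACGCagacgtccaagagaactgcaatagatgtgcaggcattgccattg
pcrg-1 and E04F6.6: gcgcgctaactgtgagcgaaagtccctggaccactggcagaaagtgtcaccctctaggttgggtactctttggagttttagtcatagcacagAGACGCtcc

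The word GAANNTTC joins 2 facing units of the heat shock element, the site of heat shock factor. It was present at the summits beside the heat shock protein genes F44E5.4 and F44E5.5, beside dnj-13, which encodes a J-domain co-chaperone, beside hsp-90, and beside ufbp-1, the gene that follows hsp-110. The windows are chrII:11759408-11759508, chrII:11545424-11545524, chrV:14685706-14685806 and chrIII:8443739-8443839.
F44E5.4 and F44E5.5: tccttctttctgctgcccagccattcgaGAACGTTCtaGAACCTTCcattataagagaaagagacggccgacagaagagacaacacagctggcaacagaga
dnj-13 and F54D5.9: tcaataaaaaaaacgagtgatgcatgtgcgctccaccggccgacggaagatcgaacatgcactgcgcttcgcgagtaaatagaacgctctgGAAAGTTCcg
hsp-90 and C47E8.4: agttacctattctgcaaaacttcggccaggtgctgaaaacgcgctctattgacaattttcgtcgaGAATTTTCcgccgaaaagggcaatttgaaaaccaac
ufbp-1: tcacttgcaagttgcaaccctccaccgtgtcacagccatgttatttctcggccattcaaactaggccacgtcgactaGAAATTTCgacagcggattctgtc

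Promoter candidates entered the authors' optimal list, thresholded on reproducibility, more often than other autosomal candidates. Of the 7423 promoter candidates, 176 were optimal (2.37%, exact 95% interval 2.04 to 2.74%), against 166 of 16640 other autosomal candidates away from the short noncoding genes (0.998%, interval 0.852 to 1.16%). Across all pooled candidates 1.89% were optimal, and across the autosomal candidates compared here 1.42%. The odds ratio was 2.41 (interval 1.93 to 3.003), with an adjusted p of 6.19e-15 by a two-sided Fisher's exact test. Optimal promoter candidates made up 31.1% of the optimal list (interval 27.3 to 35.1%), and promoter candidates 24.7% of all pooled candidates. Intervals and p-values here treat candidates as separate, cover counting error only and do not measure variation between worms, and neighbouring candidates can share fragments.

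The typical promoter candidate was little stronger than candidates elsewhere, and the difference lay among the strong ones. The median of the authors' peak signal was 33.3 for promoter candidates and 32.2 for the other autosomal candidates, whereas the 99th percentile was 107 against 86.5. The strongest promoter candidate had a signal of 294, below the 344 of the strongest other autosomal candidate. Optimal promoter candidates ran from 86.8 to 294 with a median of 103.6. Since the optimal list holds the pooled candidates of highest signal, being optimal and having a high pooled signal are one measurement. The median width was 424 bp, and 13 of the 14 narrower promoter candidates were optimal.

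Optimal shares just inside and outside the rule's position limits were read against the 1.42% of the autosomal candidates compared, with distances taken to the nearest start in windows extended by 100 bp. From 901 to 1000 bp upstream, just inside the window, 2 of 455 candidates were optimal (0.440%), and from 1001 to 1100 bp upstream, just outside it, 4 of 467 (0.857%). Downstream, 16 of 851 were optimal from 101 to 200 bp (1.88%) and 10 of 742 from 201 to 300 bp (1.35%). A further 227 autosomal candidates lay in a promoter window but within 500 bp of a short noncoding gene, and 37 of them were optimal (16.3%).

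The strongest promoter candidates lay beside genes of many kinds. The rpl-3 candidate (chrIII:3867437-3867676) had a pooled signal of 294, and signals of 140.2 in replicate 1 and 152 in replicate 2. Its summit lay 289 bp upstream of the start, and it ranked 8 and 4 in the replicates. The candidate between F44E5.4 and F44E5.5 (chrII:11759342-11759606) had a pooled signal of 238, with 137 and 101 in the replicates. These divergent genes encode HSP70-family proteins and are 99.2% identical, and how reads that fit both copies were placed is not given in the sources used here. A candidate between tasp-1 and K01G5.10 (chrIII:10759179-10759315) followed with 224, and 114 and 104.4 in the replicates. Both replicates ranked these candidates among their 25 strongest.

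The next candidates were those of dnj-13 and F54D5.9 (pooled signal 209), set-16 and drr-2 (200.9), kel-3, which encodes a kelch-repeat protein (197), and ufbp-1 (193). The wwp-1 promoter, of a gene for an E3 ubiquitin ligase, had a candidate of signal 189 (chrI:536793-536992) that replicate 1 ranked 19 and replicate 2 ranked 69. The candidate shared by rpl-15 and K11H12.8 reached 186. The candidate between hsp-60, the mitochondrial chaperonin gene, and Y22D7AL.10, a gene for its 10 kDa partner, reached 180.2, with 89.0 and 92.2 in the replicates. A protein pair that works together in mitochondria thus had its candidate in the DNA shared by both genes (chrIII:1618913-1619336).

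**Figure D1:**
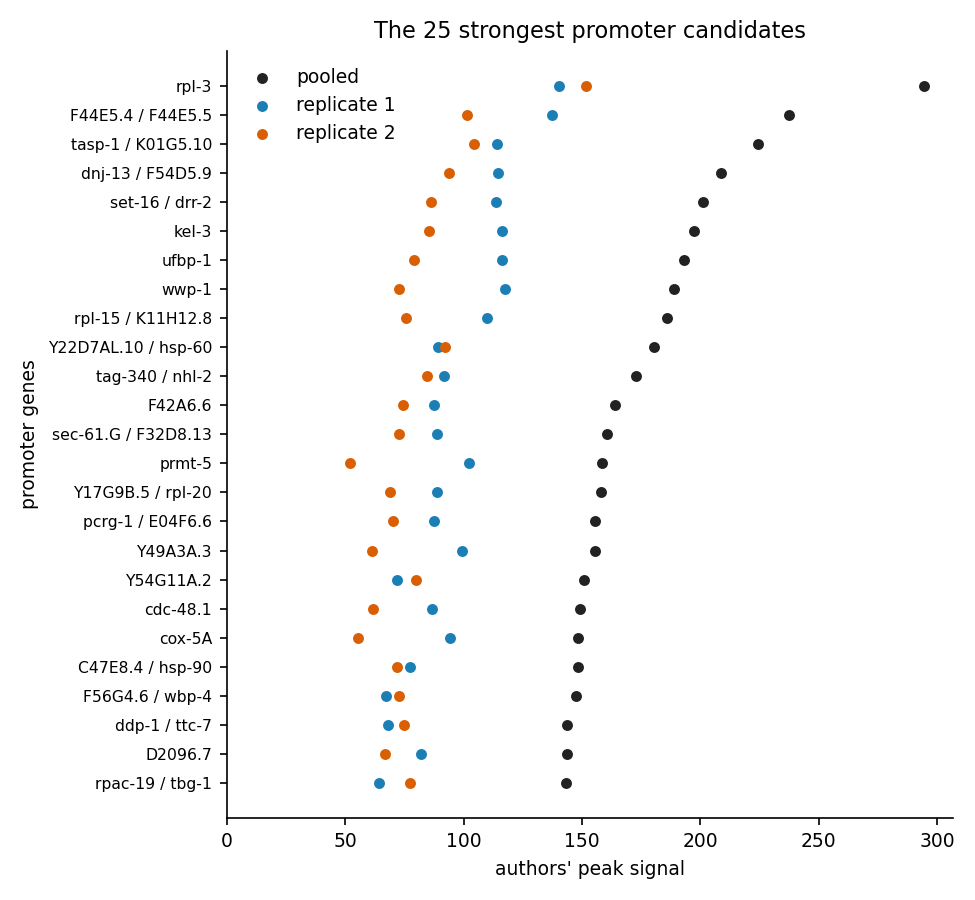
The authors' peak signal (x axis, no unit given) of the 25 strongest promoter candidates, named by the genes whose promoter windows hold the summit. Black points are pooled values and coloured points the 2 replicates, and pooled values fall from 294 at rpl-3 to 143 at rpac-19 and tbg-1.

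Farther down the 25 strongest were promoters of cdc-48.1, an AAA ATPase that extracts ubiquitinated proteins (149), of cox-5A, a cytochrome c oxidase subunit (148), of hsp-90 (148) and of prmt-5, an arginine methyltransferase (158). Others lay at ddp-1, a mitochondrial import factor (144), and at rpac-19, a subunit of RNA polymerases I and III (143). Of the 25, 11 were divergent promoters, 11 were single and 3 served a same-strand pair. Among all 7423 promoter candidates 754 were divergent, 6522 single and 147 at same-strand pairs. Of the 25, 21 lay near their start, from 300 bp upstream to 100 bp downstream, as did 3283 of the 7423. Chromosome III held 11 of the 25 and 1332 of the 7423. Of these 1332 promoter candidates, 47 were optimal (3.53%, interval 2.60 to 4.66%). The shares on the other autosomes ran from 1.71% on II to 2.89% on IV. The other autosomal candidates also had their highest share on III (46 of 3190, 1.44%), and in replicate 1 the promoter shares on III and IV were 2.90 and 2.82%.

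The strongest promoter candidates of the pooled list were strong in both replicates, and the replicates ordered the rest loosely. Of the 7423, 5659 (76.2%) overlapped a candidate of replicate 1 by at least 1 bp, 5314 (71.6%) one of replicate 2, and 3878 (52.2%, interval 51.1 to 53.4%) one of each. For the other autosomal candidates the last share was 48.2%. Every one of the 176 optimal promoter candidates had a match in both replicates, and the list was itself derived by comparing them. The replicate summits lay within 100 bp of each other for 45.1% of the matched promoter candidates and for 83.5% of the optimal ones.

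Ranks within each replicate gave a stricter view. As many candidates as the optimal list holds were taken from the top of each replicate list, which is 1.89% of the candidates of replicate 1 and 1.91% of those of replicate 2. Among the optimal promoter candidates, 128 were in this top set in replicate 1, 120 in replicate 2, 85 (48.3%) in both and 13 in neither. All 25 strongest were in the top set of both, with lowest ranks of 281 and 259. They were ranked by pooled signal, which draws on both replicates, so this is no independent measure of agreement. Of all 7423 promoter candidates, 248 matched the top set of replicate 1, 246 that of replicate 2 and 122 both. Weaker optimal candidates were less even: the rpi-2 candidate (pooled signal 139.9) ranked 36 in replicate 1 and 892 in replicate 2, and the candidate between ipla-6 and mif-4 (91.9) ranked 237 and 7021. The Spearman correlation of the replicate signals was 0.349 over 3878 matched promoter candidates and 0.188 over the 176 optimal ones. These correlations are across candidates, whose lists share a control alignment, and the second is over candidates chosen by their pooled signal.

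**Figure D2:**
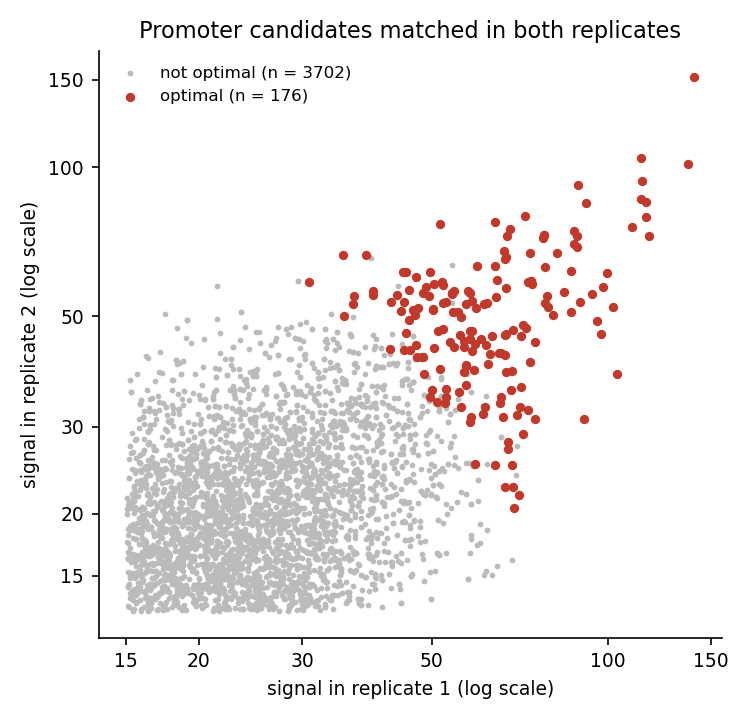
The authors' peak signal in replicate 1 (x axis) and replicate 2 (y axis), both on log scales, for the 3878 promoter candidates matched in both replicates. Red points are the 176 optimal candidates, which lie toward the upper right, and grey points are the others.

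Candidates called from each replicate alone showed the same order of promoters over other regions. In replicate 1, 169 of 7300 promoter candidates were in its top set (2.32%), against 188 of 16655 other autosomal candidates (1.13%). In replicate 2 the counts were 180 of 7266 (2.48%) and 193 of 16619 (1.16%). The odds ratios were 2.08 and 2.16.

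Promoter candidates were most numerous around the start, and the optimal share was highest farther upstream, with intervals that overlapped those around the start. The 100 bp just downstream of the start held the most candidates, 1010 (13.6%), whereas each 100 bp bin from 1000 to 300 bp upstream held 455 to 494. The optimal share was 4.35% from 100 to 199 bp upstream (34 of 782, interval 3.03 to 6.02%) and 4.12% from 200 to 299 bp upstream (24 of 582). It was 2.88% in the last 100 bp before the start (interval 1.89 to 4.19%) and 2.38% in the 100 bp after it (interval 1.53 to 3.52%). From 900 to 1000 bp upstream it was 0.417% (2 of 480, interval 0.0505 to 1.50%). The median summit lay 165.5 bp upstream for optimal and 228 bp upstream for all promoter candidates. In the replicates the highest bins were again upstream of the start, at 4.08% from 200 to 299 bp in replicate 1 and 4.08% from 100 to 199 bp in replicate 2, with intervals that overlapped those of neighbouring bins.

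Near candidates were optimal in 108 of 3283 cases (3.29%) and far ones in 68 of 4140 (1.64%). The odds ratio was 2.04 (interval 1.48 to 2.81), with an adjusted p of 9.52e-06 by a two-sided Fisher's exact test, read against the 1.89% of all candidates. This call depends on what counts as near. With near limited to 150 bp upstream to 50 bp downstream the odds ratio was 1.33 (adjusted p 0.124), and with promoter windows limited to 500 bp upstream to 100 bp downstream it was 1.45 (adjusted p 0.155).

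**Figure D3:**
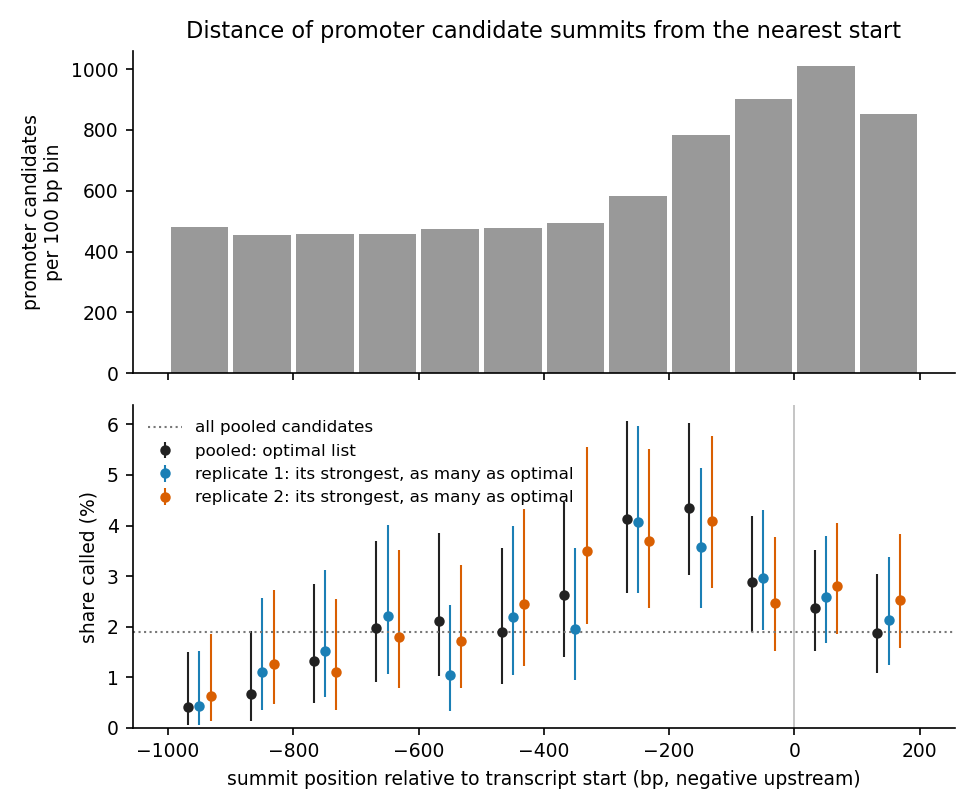
Upper panel: promoter candidates per 100 bp bin of distance from the nearest start (bp, negative upstream). Lower panel: the share called in each bin with exact 95% intervals for the pooled list and each replicate, highest at 4.35% from 100 to 199 bp upstream in the pooled list, with the 1.89% of all pooled candidates dotted.

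The strongest candidates of the distance bins included genes far from the summit. The rpl-15 summit lay 357 bp upstream of its start, and that of hsp-1, the constitutive HSP70 gene, 427 bp upstream (signal 131). Summits of tag-340 and nhl-2, the latter a TRIM-NHL protein gene, lay 613 and 810 bp upstream of the starts (173). The summit of cbp-1, a p300/CBP acetyltransferase gene, lay 866 bp upstream (129). In the farthest bin the strongest was dhs-8, 924 bp upstream, with a signal of 109. Among the strongest just downstream of a start was cux-7, in the promoter it shares with C07H6.2 and lig-4, with its summit 5 bp downstream and a signal of 141.

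Divergent promoters, where the summit lay in windows of genes on both strands, had a larger optimal share than single ones. Of 754 divergent promoter candidates 37 were optimal (4.91%, interval 3.48 to 6.70%), and of 6522 in the window of 1 gene 130 were (1.99%, interval 1.67 to 2.36%), against 1.89% of all candidates. The odds ratio was 2.54 (interval 1.70 to 3.71), with an adjusted p of 9.52e-06 by a two-sided Fisher's exact test. Median signals were 33.4 and 33.3, and the highest were 238 and 294. In replicate 1 the shares in the top set were 4.40 and 1.95%, and in replicate 2 they were 4.27 and 2.18%. Among candidates near their start the odds ratio was 2.22 (interval 1.37 to 3.51, adjusted p 0.00101), in a comparison chosen after seeing the data.

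Head-to-head pairs made up 748 of the 754. With starts at most 500 bp apart 15 of 244 were optimal (6.15%), with 501 to 1000 bp 15 of 337 (4.45%), and with 1001 to 3000 bp 7 of 167 (4.19%), and the intervals of the 3 shares overlapped. Set-16 and drr-2 have starts 346 bp apart, and the summit lay 157 and 189 bp from them, close to the middle. Between tasp-1 and K01G5.10, with starts 785 bp apart, the summit lay 61 bp from tasp-1. Same-strand pairs, with the summit in windows of at least 2 genes of one strand, were optimal in 9 of 147 cases (6.12%, interval 2.84 to 11.3%). Their strongest were sec-61.G with F32D8.13 (161) and ddp-1 with ttc-7 (144).

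Operon annotation was not used here, so closely spaced genes on one strand stood in for operons. A gene was called downstream where a protein-coding gene on the same strand ended at most 500 bp before it or overlapped it. No protein-coding start of the other strand could lie between the genes. A gene was called first where such a gene followed and none preceded. A head-to-head start in the gap in front thus kept a gene out of the downstream class but not out of the first class. Candidates took the class of the nearest start, and not every such run is an operon. Of 2271 candidates at downstream genes 73 were optimal (3.21%, interval 2.53 to 4.02%), and of 1038 at first genes 29 (2.79%, interval 1.88 to 3.99%). The odds ratio was 1.16 (interval 0.737 to 1.86), with an adjusted p of 0.588 by a two-sided Fisher's exact test, and the interval covers a difference in either direction. At genes in neither class 74 of 4114 were optimal (1.80%), near the 1.89% of all candidates.

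The counts differed with the arrangement of the promoter. At single promoters 66 of 2152 candidates of downstream genes were optimal (3.07%), 12 of 801 of first genes (1.50%) and 52 of 3569 of genes in neither class (1.46%). The odds ratio of downstream against first was then 2.08 (interval 1.11 to 4.25, adjusted p 0.0195 by a two-sided Fisher's exact test), in a comparison chosen after seeing the data. At divergent promoters the order was the other way, with 15 of 194 first genes (7.73%, interval 4.39 to 12.4%), 22 of 519 in neither class (4.24%) and 0 of 41 downstream genes, which allows a share of up to 8.60%. The replicates showed the same order at single promoters, with 2.86 against 0.983% in replicate 1 and 3.55 against 1.83% in replicate 2. The class rule allows no start of the other strand in the gap in front of a downstream gene. Divergent candidates of downstream and first genes are therefore not alike in position. The difference between the arrangements was not itself tested.

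**Figure D4:**
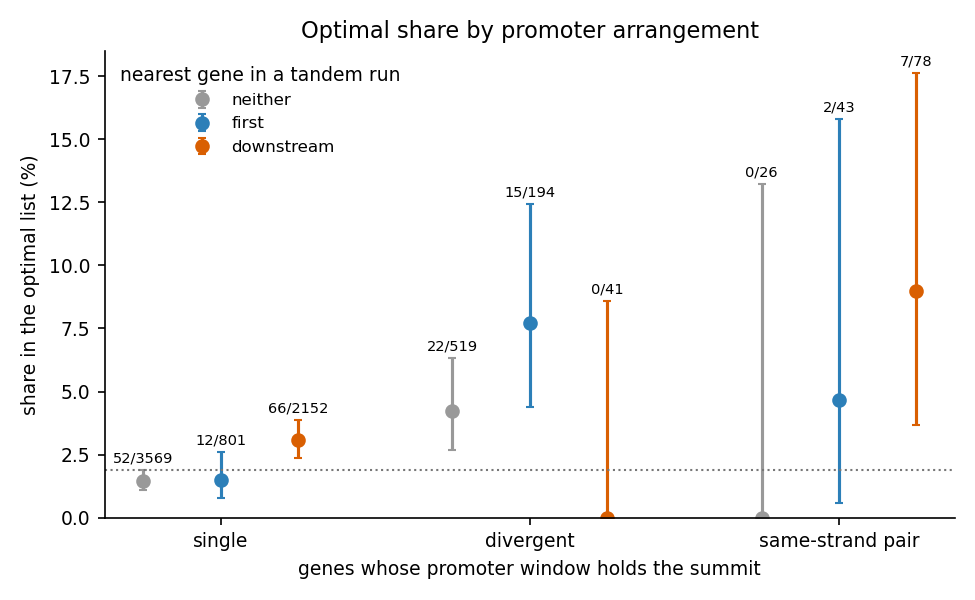
Share of promoter candidates in the optimal list (y axis, %) by the arrangement of the genes whose windows hold the summit and by the nearest gene's place in a tandem run. Points carry exact 95% intervals and counts, the dotted line is the 1.89% of all pooled candidates, and the highest share among single promoters is that of downstream genes.

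Optimal summits at downstream genes lay mostly past the end of the upstream gene. Their place was read from that end and from the nearest start, which can lie inside the downstream gene. Of the 73 optimal ones 35 lay past the end and before the start, 30 past the end and at or past the start, and 8 not past the end. The optimal shares were 5.59% (35 of 626), 4.37% (30 of 687) and 0.835% (8 of 958, interval 0.361 to 1.64%). Some of the 35 lay inside the downstream gene. The Y17D7C.1 summit lay 1037 bp past the end of the upstream gene, although the genes are 471 bp apart. The median optimal summit lay 142 bp past the end of the upstream gene.

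The genes in front, named after their values were seen, were of many kinds. The kel-3 summit lay 52 bp past the end of ant-1.1, an adenine nucleotide translocator gene. It fell in an annotated 3′ UTR of neither ant-1.1 nor kel-3. The ufbp-1 summit lay 121 bp past the end of hsp-110, a chaperone gene. The F42A6.6 summit (signal 164) lay 162 bp past hrpa-1, which encodes an hnRNP A protein. The prmt-5 summit lay 145 bp past atp-2, which encodes the beta subunit of ATP synthase, and that of Y49A3A.3 (155) 80 bp past vha-13, a V-ATPase subunit gene. The summits of ddp-1, D2096.7 and rpac-19 lay 141 bp past hlh-33, 64 bp past nap-1 and 53 bp past ubc-7. At F42A6.6, prmt-5 and Y49A3A.3 the summits lay 96, 111 and 92 bp downstream of the nearest start of the downstream gene. Such summits lie close to the end of one gene and to the start of the next, and to which gene the signal belongs cannot be told apart.

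The optimal share also differed with the position of the summit in gene models, in counts that were not tested. Of the promoter candidates 2807 were intergenic, and 106 of these were optimal (3.78%, interval 3.10 to 4.55%), against 63 of 3950 intergenic candidates outside promoters (1.59%, interval 1.23 to 2.04%). Summits in 5′ UTRs were optimal in 16 of 430 cases (3.72%), in coding exons in 34 of 2153 (1.58%), in 3′ UTRs in 7 of 312 (2.24%) and in introns in 13 of 1721 (0.755%). Outside promoters the share was 0.726% in introns and 0.631% in coding exons, and in 3′ UTRs it was 2.99% (22 of 737), above the 2.24% in promoters with overlapping intervals. Outside coding exons the odds ratio of promoter against other candidates was 2.22 (interval 1.73 to 2.85), in a comparison chosen after seeing the data. Among intergenic summits, 7.71% were optimal at downstream genes (30 of 389), 4.31% at first genes (22 of 510) and 2.83% at genes in neither class (54 of 1908).

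GC content moved with the calls. The 101 bp around optimal promoter summits had a mean GC content of 46.2% ± 9.73 (SD, n = 176), and windows centred 275 bp to either side of them 36.1%. The mean was 40.6% ± 9.14 for promoter candidates outside the optimal list, 41.7% for other autosomal candidates, 44.8% ± 9.21 for the 166 optimal ones among the latter, and 34.3% for windows centred 150 bp upstream of all 25199 autosomal protein-coding starts. Divergent and single promoter candidates had means of 41.2 and 40.7%, and near and far ones 40.6 and 40.9%.

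The contrasts were also read within tertiles of GC content. In the highest tertile 4.25% of promoter candidates were optimal against 1.34% of the others, in the middle tertile 1.90 against 0.846%, and in the lowest tertile 1.14 against 0.768%, where the intervals overlapped. Divergent promoters were optimal in 10.9% of the highest tertile (28 of 257) against 3.29% of single ones. In the middle tertile 8 of 243 divergent candidates were optimal (3.29%) against 35 of 2028 single ones (1.73%), with overlapping intervals. In the lowest tertile this was 1 of 254 divergent (0.394%) against 27 of 2428 single candidates (1.11%), with overlapping intervals. Near candidates had a higher share than far ones in each tertile, at 6.12 against 2.82%, 2.42 against 1.48% and 1.64 against 0.728%, and their intervals overlapped in the middle and lowest tertiles.

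**Figure D5:**
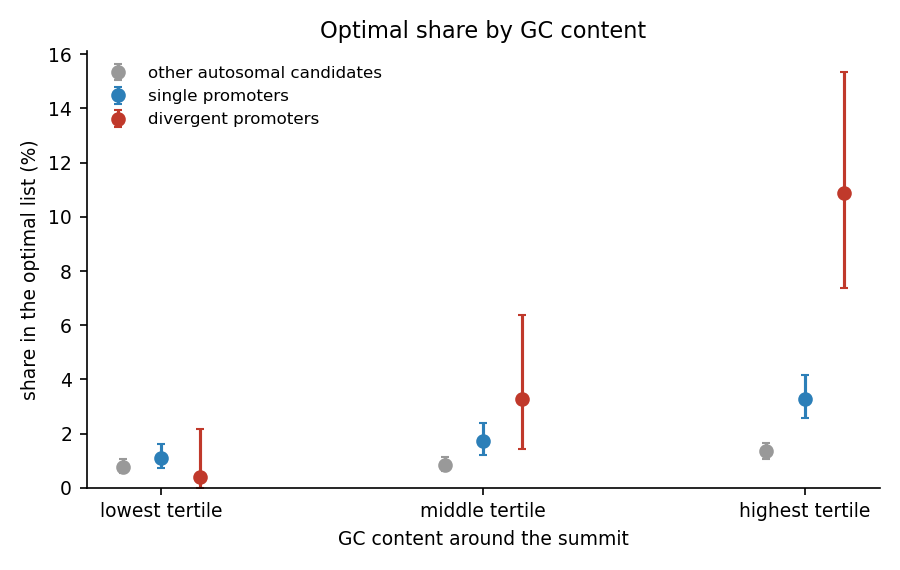
Share of candidates in the optimal list (y axis, %) by tertiles of GC content around the summit, with exact 95% intervals. Divergent promoters (red) reach 10.9% in the highest tertile, against 3.29% for single promoters (blue) and 1.34% for other autosomal candidates (grey).

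Short words at the summits were counted as well. The homeodomain core TAATTA was present in 1.70% of optimal promoter windows (3 of 176, interval 0.353 to 4.90%), in 3.71% of promoter windows outside the optimal list, in 5.11 and 4.55% of the flanks and in 5.77% of all autosomal promoters. The TATA box word TATAAA was present in 3.41% of optimal windows, 8.54% of promoter windows outside the optimal list and 13.0% of all promoters. Of the other words counted, GAGAGA was present in 14.8% of optimal windows and 8.68% of all promoters. The E2F type word TTGCGC was in 7.39 and 2.87%, and the Sp1 box GGGCGG in 6.82 and 2.64%. The homeodomain word TTATTG was in 9.66% of optimal windows and 11.3% of all promoters, with the second share inside the interval of the first. These counts were not adjusted for GC content, which averaged 46.2% in optimal windows and 34.3% in those of all promoters. Both strands were searched, and a missing word says only that these letters are not in the window.

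Of the words printed above, AGACGC was in 24 of 176 optimal promoter windows (13.6%), in 3.81% of windows outside the optimal list, in 1.14 and 3.98% of the flanks and in 3.08% of all autosomal promoters. The 166 optimal candidates outside promoters held it in 9.04%. The word ACACTC was in 18 of the 176 (10.2%), in 4.002% outside the optimal list and in 3.58% of all promoters, and in 4.22% of the optimal candidates outside promoters. The heat shock word GAANNTTC was in 15 of the 176 (8.52%, interval 4.85 to 13.7%) and in 6.59% of all promoters, a share inside that interval. Of 18 windows examined among the strongest candidates 4 held it, and the chaperonin window of hsp-60 and Y22D7AL.10 did not. All 3 words were chosen by reading the strongest of these windows, and their shares are a description.

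At the level of genes, 6038 of 17242 autosomal protein-coding genes (35.02%) had a promoter candidate and 219 (1.27%) an optimal one, which is 3.63% of those with a candidate. Of these genes 1728 had at least 2 promoter candidates and 5 at least 2 optimal ones. One of the 5 was adss-1, an adenylosuccinate synthetase gene, whose candidates of signal 143 and 105 overlapped each other. Optimal promoter candidates overlapped the next one in 3 cases, the others at lsm-8 and in the window shared by C47E8.11 and gasr-8. Each candidate was counted separately. No promoter candidate lay in the window of ceh-79 itself or of unc-119.

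Among 36 gene lists the cytosolic ribosomal protein genes had the most optimal promoters by count, followed by heat shock and respiratory chain genes. The lists differ in size. By share of genes with a candidate, histone deacetylase genes (66.7%, of 3) and lin-35 class genes (50%, of 6) came first. Over all genes with a candidate the share was 3.63%. The gene lists were drawn up with earlier results in view, so their counts are descriptions. Of 75 cytosolic ribosomal protein genes 47 had a promoter candidate and 7 an optimal one, 14.9% of those with a candidate, with rpl-3, rpl-15, rpl-20 (158) and rps-1 (135) the strongest. Of 27 heat shock protein and chaperonin genes 15 had a candidate and 5 an optimal one: hsp-60, hsp-90, hsp-110 (133), hsp-1 and cct-8, which encodes a cytosolic chaperonin subunit (134). The list was drawn by gene symbol and leaves out F44E5.4, F44E5.5 and Y22D7AL.10. The J-domain genes had 1 optimal promoter, that of dnj-13, among 18 with a candidate (5.56%, beside 3.63% over all genes). Median strongest signals were 48.5 for the ribosomal protein genes and 54.6 for the heat shock genes, against 35.3 over all genes with a candidate.

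Genes of the mitochondrial respiratory chain had optimal promoters in 5 of 36 with a candidate. They were cox-5A, cox-5B (131), mev-1, a succinate dehydrogenase subunit (107), and nduf-2.2 (103) and nduf-9 (94.0), subunits of complex I. Replicate 2 ranked the last pair 2094 and 3685, and replicate 1 ranked them 134 and 217. Of 70 mitochondrial ribosomal protein genes 49 had a promoter candidate and 1 an optimal one, mrpl-32 (92.3), which is 2.04% against the 3.63% of all genes with a candidate. Translation initiation and elongation factors had 22 of 36 genes with a candidate and none optimal, beside the 3.63% of all genes, and the strongest was eif-2alpha (83.3).

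Among the lin-35 class genes of the DREAM complex, which represses cell cycle and germline genes, 6 of 8 had a promoter candidate and 3 an optimal one. These were lin-9 (115), lin-54 (109) and lin-53 (88.9), beside the 3.63% optimal over all genes with a candidate. The lin-54 summit is shared with rpl-12, 6 bp upstream of the ribosomal protein gene and 387 bp upstream of lin-54, so 1 candidate counts for both lists. Likewise the summit of hsp-110 is shared with rpn-3, a proteasome subunit gene, and that of mev-1 with jmjd-4. Histone deacetylase genes had optimal promoters at hda-11 (111) and sir-2.1 (98.1), of 3 with a candidate.

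Larger families were read against the 35.02% of all genes with a promoter candidate and the 3.63% of those with an optimal one. Chemoreceptor genes of the sr families had a candidate at 183 of 1143 (16.0%) and an optimal one at 3: srh-2 (127), sri-5 (104.3) and srbc-58 (88.3). Nuclear hormone receptor genes had a candidate at 71 of 246 and an optimal one at nhr-114 (102). F-box genes (60 of 305), C-type lectin genes (66 of 237), neuropeptide and insulin genes (37 of 108) and histone genes (19 of 68) had candidates and no optimal promoter. The neuropeptide and insulin share, 34.3%, was about that of all genes. The ceh homeobox genes had a candidate at 17 of 45 (37.8%) and none optimal, with ceh-53 the strongest (63.1). In whole animals, binding in few cells cannot be told apart from no binding.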

How the data were processed

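ChIP-seq peak lists of 2 biological replicates and of their pooled alignments were used, in the ce11 assembly. The peak signal is the authors' deposited value and its scaling is not given in the sources used here, nor are the aligner and the peak caller. The deposited −log10 q was not used in any comparison. The lists hold no read counts, so the depth of each replicate is unknown. The optimal list is the authors', derived by the irreproducible discovery rate from replicate and pooled lists, per the labels' file notes.

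Summits were placed with Ensembl release 115 of WBcel235, and sequence came from RefSeq. Distances refer to the nearest protein-coding start. Shares carry exact Clopper-Pearson intervals, and 4 two-sided Fisher's exact tests were adjusted together by the Benjamini-Hochberg method, with odds ratios by conditional likelihood. In the replicate lists, as many of the strongest candidates as the optimal list holds stood in for it. Replicates were matched to pooled candidates by an overlap of at least 1 bp. Genes named were those of the 25 strongest promoter candidates, of the 5 strongest in each class and distance bin, up to 4 of each gene list mentioned, ceh-79 and unc-119. Other optimal genes of a list, and the genes in front of tandem genes, were named after their values were seen. The members, tests, 36 gene lists and words were chosen with earlier results of these data known. Tests were tested on simulated data. Gene copies were compared with edlib. The tools were scipy 1.17.1, pandas 2.3.3, numpy 2.4.6 and matplotlib 3.10.9, under Python 3.11.15.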

Additional observations from a re-analysis of the deposited data

How the results depend on the processing

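Promoter against other candidates and divergent against single promoters kept direction and call under every alternative run, with odds ratios of 1.78 to 2.89 over 12 alternatives and 1.73 to 4.09 over 13. Tertiles of GC content were not among these alternatives, and in the lowest one divergent promoters had the lower share (0.394 against 1.11%). Without one replicate the odds ratios were 2.08 to 2.16 for promoters, 2.0002 to 2.31 for divergent promoters, 1.67 to 2.004 for near candidates and 1.30 to 1.33 for downstream genes. Near against far kept its call in 11 of 13 alternatives, and fell short at 1.45 with the narrower promoter window and at 1.33 with the narrower definition of near. Downstream against first genes was reversed at 0.642 (adjusted p 0.176) with fewer and stronger candidates counted as optimal, and at 0.819 (adjusted p 0.405) with tandem genes at most 200 bp apart. It passed the threshold at 2.08 with single promoters only and at 2.01 without divergent promoters. Those 2 alternatives were chosen after seeing the data, and the cause of these changes was not tested. Replicate matching by summits within 150 bp left 2392 promoter candidates matched in both, against 3878. Overlap with an optimal peak in place of identical coordinates gave 245 optimal promoter candidates against 176. No paired analysis was possible because the series holds 1 group. Without read counts, how far depth limits the calls is unknown.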

Other observations

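Of the 36 gene lists 18 had an optimal promoter and 18 had none. The lists are of unequal size, and that of the vitellogenins had no gene with a promoter candidate. Gene by gene, 3.63% of all genes with a promoter candidate had an optimal one, a share not comparable with a count of lists. Among lists not described above, kinesin genes had optimal promoters at kap-1 (signal 92.8) and osm-3 (89.3), which encode subunits of kinesin-2 motors of cilia, of 6 with a promoter candidate. Both genes were downstream members of a tandem run, and their summits lay 7 bp upstream and 154 bp downstream of the start. A list drawn by the symbols of secretion and sorting genes had 3 of 35 with a candidate: sec-61.G and sec-61.B (103.7), which encode subunits of the Sec61 channel of the endoplasmic reticulum, and vps-37 (91.2), a sorting gene. The proton pump genes had 1, vha-2 (107), of 10, and the collagen genes had 1, col-63 (86.8), of 39, which is 2.56%. No optimal promoter was counted for ubiquitin conjugation genes (17 with a candidate), snRNP and SR splicing protein genes (16), nuclear pore genes (12), rab genes (10), RNA polymerase subunit genes (8) or Integrator genes (5). The same held for the math and bath genes (19), cytochrome P450 genes (13) and UDP-glucuronosyltransferase genes (9).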
